A study of Mus musculus with 4 samples.

Results

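The replication licensing genes examined here are Mcm2, Mcm3, Mcm4, Mcm5, Mcm6, Mcm7, Mcm10, Cdc6, Cdt1 and Gins1, 10 of the 22180 genes with a value of their own in the series. They were chosen by symbol. All 10 matched exactly 1 probe set whose annotation lists that symbol alone, so no choice between probe sets was needed. A further 2 probe sets list Mcm7 together with a second symbol and were not used.

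The study asked how a high-fructose diet and loss of Chrebp alter gene expression in mouse liver. Mlxipl encodes ChREBP, a sugar-responsive transcription factor. Liver RNA of C57BL/6 mice older than 2 months was combined by group and hybridised to 1 Affymetrix array for each group. The first array held wild-type (WT) mice on regular chow (7 livers), the next WT mice on a 70% fructose diet for 3 weeks (7 livers), another WT mice on that diet for 2 weeks (4 livers), and the last Chrebp-null mice on it for 2 weeks (6 livers). Every pool mixed males and females. The labels state neither the proportion of each sex nor how the null allele was made. The submitters paired 3-week fructose with chow, and null with WT at 2 weeks; these comparisons share no array. With 1 pool for each group there is no replicate, no SD and no p-value, and precision is limited by having 4 arrays.

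Levels are log2 values after RMA, which corrects background, brings arrays to a common scale and summarises each probe set. A difference of 1 on this scale is a ratio of 2. A floor of 3.52, the median over all genes of the mean level, marks where levels become hard to read, and a gene was assessed in a comparison where the higher array reached it. Array medians lay between 3.11 and 3.17 and Pearson's r between arrays between 0.974 and 0.983. Mlxipl read 9.25, 9.64 and 9.83 in the WT pools (chow, 3 weeks, 2 weeks) and 8.09 in the null pool, which is the direction of its label. All 8 hepatocyte markers, among them Alb and Ttr, were above the floor on all 4 arrays.

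Before a cell copies its DNA, the origin recognition complex, Cdc6 and Cdt1 load rings built of Mcm2 to Mcm7 onto replication origins, a step called licensing that takes place in G1 phase. In S phase the rings are joined by Cdc45 and the GINS complex to become the helicase that unwinds DNA, with Mcm10 helping the activated helicase to move. Genes of this machinery are classical targets of E2F transcription factors, which the RB family holds in check in resting cells. Most hepatocytes of an adult liver are not dividing, but they can re-enter the cell cycle.

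The promoters are shown first because shared E2F letters are the best known common feature of these genes. RefSeq promoter windows of GRCm38.p6, running from 250 bases before to 50 bases after an annotated start, were at hand for 8 of the 10 genes, with 2 windows for Mcm7 and none for Mcm4 and Gins1. The letters searched on both strands were TTTCCCGC, TTTGGCGC, TTTCGCGC and TTTGCCGC, the forms of the E2F consensus. They occur in 744 of the 32851 windows of all genes (2.26%), in windows of 704 of 27025 genes, and in windows of 6 of the 8 licensing genes. Among genes assessed in null over WT at 2 weeks, 406 had the letters and 8772 had a window without them. Median GC content was 52.67% over all windows and 57.33% over those of the licensing genes. Sequences run 5′ to 3′ along the gene's own strand, and capitals mark the E2F letters, including those read on the other strand. Overlapping matches run together. For genes with matches the stretch around them is printed:
Mcm3 (chr1:20820263-20820319, minus strand): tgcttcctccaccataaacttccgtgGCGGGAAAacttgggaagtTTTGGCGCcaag
Mcm5 (chr8:75109330-75109393, plus strand): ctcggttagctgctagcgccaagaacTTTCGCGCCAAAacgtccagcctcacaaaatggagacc
Mcm6 (chr1:128359719-128359841, minus strand): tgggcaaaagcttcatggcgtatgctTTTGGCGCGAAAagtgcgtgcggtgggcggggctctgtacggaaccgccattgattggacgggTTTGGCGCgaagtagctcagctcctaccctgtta
Mcm7 (chr5:138171834-138172074, minus strand): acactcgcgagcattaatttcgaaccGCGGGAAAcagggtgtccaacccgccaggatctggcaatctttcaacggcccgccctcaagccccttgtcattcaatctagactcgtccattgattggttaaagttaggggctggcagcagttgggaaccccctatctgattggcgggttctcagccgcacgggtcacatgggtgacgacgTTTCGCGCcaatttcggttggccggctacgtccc
Cdc6 (chr11:98907987-98908046, plus strand): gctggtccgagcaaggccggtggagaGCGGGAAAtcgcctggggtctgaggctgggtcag
Cdt1 (chr8:122568021-122568064, plus strand): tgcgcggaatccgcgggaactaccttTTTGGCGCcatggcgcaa
The Mcm10 window breaks off after TTTGGCG, all but the last letter of TTTGGCGC, so a match across its edge cannot be read. The whole windows of Mcm2, the gene furthest up in the null pool over the 2-week WT pool, and Mcm10, which lay the other way, hold no full match:
Mcm2 (chr6:88898731-88899030, minus strand): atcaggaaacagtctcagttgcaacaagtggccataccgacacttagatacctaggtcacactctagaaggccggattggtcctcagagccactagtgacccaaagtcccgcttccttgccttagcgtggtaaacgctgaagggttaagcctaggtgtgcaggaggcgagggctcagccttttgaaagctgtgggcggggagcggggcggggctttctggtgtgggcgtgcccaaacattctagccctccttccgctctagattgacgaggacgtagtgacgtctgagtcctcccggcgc
Mcm10 (chr2:5012742-5013041, minus strand): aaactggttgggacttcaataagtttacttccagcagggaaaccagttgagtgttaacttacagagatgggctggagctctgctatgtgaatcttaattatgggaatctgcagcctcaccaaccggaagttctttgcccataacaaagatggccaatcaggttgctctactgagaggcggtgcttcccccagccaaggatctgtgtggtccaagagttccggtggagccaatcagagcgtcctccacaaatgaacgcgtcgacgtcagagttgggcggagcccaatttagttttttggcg

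Counting the annotated first base as 0, the matches of Mcm3 begin at 19 and 38, that of Cdt1 at 32 and that of Cdc6 at -138. In Mcm5 a match on each strand overlaps between -153 and -142. Mcm6 has an overlapping pair between -110 and -99 and a separate match beginning at -47. The Mcm7 window that holds matches has them beginning at -165 and 16, and the other Mcm7 window has none. CCAAT, the letters bound by NF-Y, occur in 7 of the 9 windows of these genes, against 37.4% of all windows. By gene they occur in 6 of the 8, all but Cdc6 and Cdt1. The cell cycle homology region (CHR, searched as TTTGAA and TTTAAA) occurs in 2 of the 9 windows, those of Mcm2 and Mcm5, against 27.6% of all windows. CACGTG, the E box (7.15% of windows), occurs in no window of the 8 genes. The carbohydrate response element that ChREBP binds was searched as a pattern with some letters fixed and others free. That pattern (0.365% of windows) occurs in none of these windows either. Forms of the element that differ at a fixed letter were not searched, so their absence cannot be read from this result. A match is a string of letters and not a measured binding site, and a missing one says only that the letters are not in this window.

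**Figure D1:**
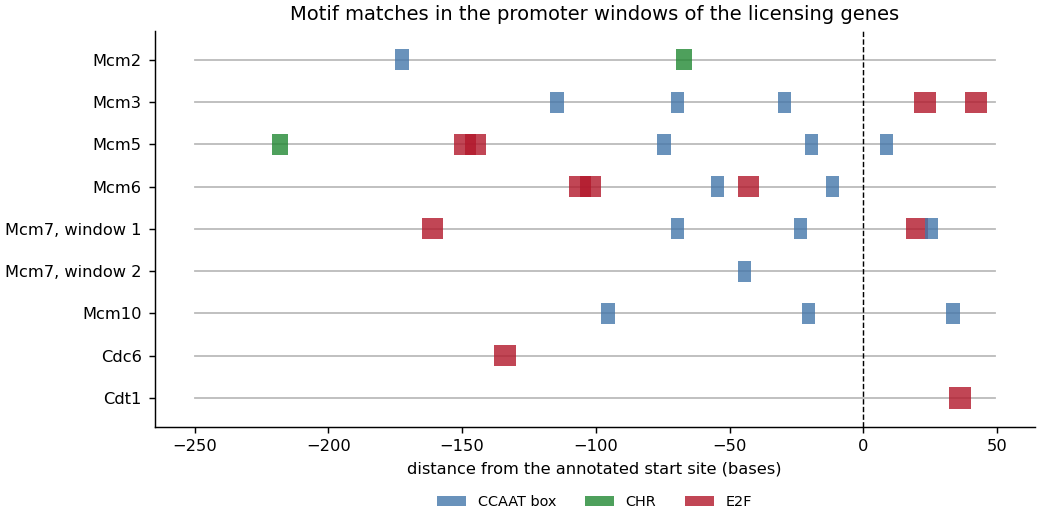
Position of motif letters in the 300-base RefSeq promoter windows of 8 licensing genes; the x axis is the distance in bases from the annotated start site (dashed line), and coloured blocks are matches on either strand. E2F letters lie in windows of 6 genes, on either side of the start. No full match lies in those of Mcm2 and Mcm10, and the Mcm10 window breaks off inside a possible match.

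Most licensing genes read highest in the null pool. The subunits Mcm2 to Mcm7 and the loading factor Cdt1 were all of this kind. The 3 WT pools spanned less than the step from the highest of them to the null pool in each of these genes except Mcm7, where the span was 0.53 and the step 0.50; in Mcm3 they were 0.52 and 0.62. The mean log2 level of the 6 subunits was 4.25 on chow, 4.19 after 3 weeks and 4.17 after 2 weeks of fructose, and 5.36 in the null pool. Mcm10 ran the other way and was lowest in the null pool. The null level of Gins1 lay inside the range of the WT pools, and Cdc6 was below the floor on every array.

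**Figure D2:**
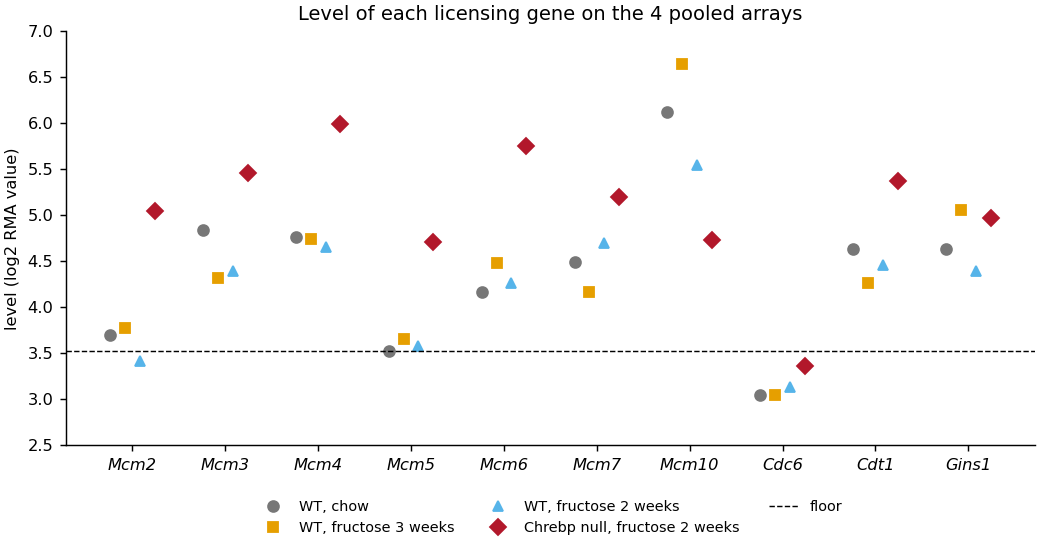
Log2 RMA level (y axis) of each of the 10 genes (x axis) on the 4 arrays, 1 point for each pool, with the floor of 3.52 as a dashed line. The red diamonds of the null pool stand above the WT points for Mcm2 to Mcm7 and Cdt1 and below them for Mcm10.

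Among the ring subunits, Mcm2 (probe set 17468798) read 3.70 on chow, 3.78 after 3 weeks, 3.41 after 2 weeks and 5.05 in the null pool. The 2-week WT level was below the floor, so the difference of null over WT at 2 weeks, 1.64 as read, is at least 1.53 with that level set at the floor. Mcm6 (probe set 17226550) read 4.16, 4.48, 4.27 and 5.76 in the same order, and its difference was 1.49, a ratio of 2.80. In both genes the null pool stood at least 1.27 above the highest WT pool, whereas the WT pools spanned 0.36 and 0.32.

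Mcm4 (probe set 17328432), which together with Mcm6 and Mcm7 forms the catalytic core of the ring, read 4.76, 4.74, 4.65 and 5.99. Its WT pools lay within 0.10 of each other, and the null pool was 1.34 above the 2-week WT pool, a ratio of 2.52. Mcm5 (probe set 17502583), which with Mcm2 forms the gate through which DNA enters the ring, read 3.53, 3.66, 3.58 and 4.71. Its difference was 1.13, a ratio of 2.19, and its WT levels sat just above the floor.

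Mcm3 and Mcm7 were the subunits whose null level stood closest to a WT level. Mcm3 (probe set 17221633) read 4.84 on chow, 4.32 and 4.39 on fructose, and 5.45 in the null pool. The null pool was thus 1.07 above WT at 2 weeks and 0.62 above chow. Mcm7 (probe set 17454226), whose introns host the miR-106b cluster, read 4.49, 4.16, 4.70 and 5.20. It stood 0.50 above WT at 2 weeks, 0.71 above chow and 1.03 above WT at 3 weeks.

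Of the loading factors, Cdt1 (probe set 17506418), which delivers the ring to the origin, read 4.63 on chow, 4.26 after 3 weeks, 4.46 after 2 weeks and 5.37 in the null pool. Its difference of 0.91 from WT at 2 weeks was just under 2-fold, and that from WT at 3 weeks was 1.11. Cdc6 (probe set 17256225), the ATPase that recruits Cdt1 and the ring, read 3.05, 3.04, 3.13 and 3.36. All 4 levels were below the floor, so no difference is given for it.

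Of the genes that act once the ring is loaded, Mcm10 (probe set 17381306) read 6.13 on chow, 6.64 after 3 weeks, 5.55 after 2 weeks and 4.73 in the null pool. It was the 1 licensing gene whose WT pools differed by 2-fold or more, with a span of 1.09. The null pool was below all of them, with differences of -0.82 from WT at 2 weeks, -1.40 from chow and -1.91 from WT at 3 weeks. Gins1 (probe set 17377525), a subunit of the GINS complex, read 4.63, 5.06, 4.40 and 4.97. The null pool was 0.58 above WT at 2 weeks and stood at -0.08 against WT at 3 weeks, inside the range of the WT pools.

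Null against WT at 2 weeks is the comparison of the series design that bears on the genotype. Of the 9 licensing genes assessed, 5 were at least 2-fold higher in the null pool (Mcm2, Mcm3, Mcm4, Mcm5 and Mcm6) and none was at least 2-fold lower. Over all 11631 genes assessed 2.03% were that much higher and 1.43% that much lower. The median of the 9 was 1.07, against 0.10 over all genes assessed. Genes near the floor leaned upward on the null array: among the 2623 genes with a mean level in the range of Mcm2 to Mcm7 (3.87 to 5.04), the median was 0.17 and 3.09% were at least 2-fold higher. A difference as large as that of Mcm2 was found in 44 of the genes assessed, as large as that of Mcm6 in 57, of Mcm4 in 80, of Mcm5 in 146 and of Mcm3 in 180. At the lower end, 245 of the genes assessed stood as low as Mcm10.

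The lean toward the null array was measured by the trend of the difference with level, which was between 0.14 and 0.16 at the levels of the 9 genes. With that trend removed Mcm2, Mcm4 and Mcm6 stood at 1.48, 1.19 and 1.33, and Mcm5 and Mcm3 fell just short of 2-fold at 0.97 and 0.91. The genes past 2-fold were then 140 higher and 225 lower, where 236 and 166 were counted before. No licensing gene changed sign.

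The same null array can be set against the other WT pools, which gives differences that are not independent of the first. Against WT at 3 weeks, 7 of 9 licensing genes were at least 2-fold higher (3.38% of all genes assessed) and Mcm10 was at least 2-fold lower (1.95%). With the trend removed 3 of 9 were higher, and the genes past 2-fold were 283 higher and 266 lower, where 398 and 230 were counted before. Among genes in the level range of Mcm2 to Mcm7, 3.85% were at least 2-fold higher there. Against that pool the 6 subunits lay in a narrow band, from 1.03 to 1.28. Against chow, where diet and genotype both differ, 4 of 9 were at least 2-fold higher (1.66% of all genes, 2.48% of those in the level range of Mcm2 to Mcm7) and Mcm10 was lower (1.43%). Mcm2, Mcm4, Mcm5 and Mcm6 stood at least 2-fold above each of the 3 WT pools, which 0.574% of the 12194 genes above the floor on some array did (0.952% in the level range of Mcm2 to Mcm7). Mcm3, Mcm7 and Cdt1 were also highest in the null pool, by 0.62, 0.50 and 0.74 over the highest WT pool. So 7 of the 9 genes were highest on the null array, as were 37.6% of all genes and 42.1% of those in that level range. Mcm10 alone was lowest there, as were 17.7% and 13.5%.

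**Figure D3:**
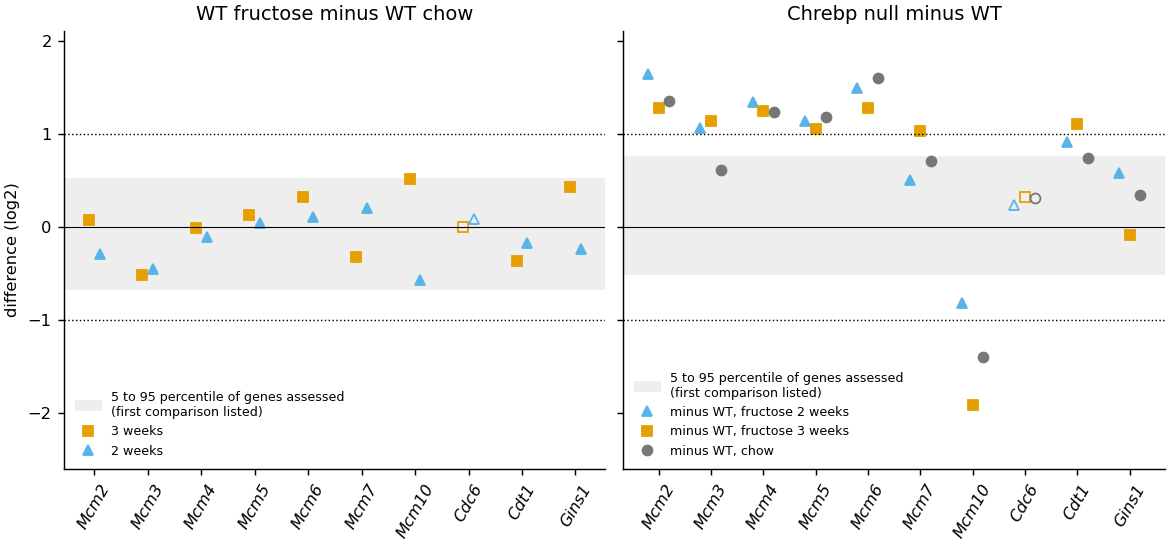
Log2 difference (y axis) of each gene (x axis) for WT on fructose minus WT on chow (left) and for the null pool minus each WT pool (right), with 2-fold as dotted lines, the 5 to 95 percentile of all genes assessed in the first comparison listed as a grey band, and open symbols where Cdc6 was below the floor. On the left the points lie near the band, and on the right Mcm2, Mcm4, Mcm5 and Mcm6 lie above 2-fold in all 3 differences.

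Fructose itself went with no 2-fold difference in these genes. In the 3-week pool over chow 0 of 9 licensing genes were at least 2-fold higher (0.64% of all genes assessed, 0.572% in the level range of Mcm2 to Mcm7) and 0 at least 2-fold lower (1.16%). The 9 differences ran from -0.52 for Mcm3 to 0.51 for Mcm10, with a median of 0.07 against -0.05 over all genes. Of all genes 75 were higher and 136 lower, or 93 and 105 with the trend removed. In the 2-week pool over the same chow array 0 of 9 were higher (0.783%, and 0.534% in that level range) and 0 lower (1.41%), with a median of -0.17 against -0.04. That split, 91 higher and 164 lower, was 142 and 104 with the trend removed. Mcm3 stood at -0.52 and -0.45 in the 3-week and 2-week pools and Cdt1 at -0.37 and -0.17, with 1 chow array in both. Mcm10 and Gins1 stood at 0.51 and 0.43 at 3 weeks and at -0.58 and -0.23 at 2 weeks. Between the WT fructose pools, which differ in weeks and in mice, Mcm10 alone of the 9 was at least 2-fold higher at 3 weeks (1.27%, and 1.68% in that level range) and none was lower (1.1%).

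Other genes of the replication machinery were read from 9 lists. In null over WT at 2 weeks the median lay above that of all genes in 8 of the 9 lists, and most single genes were under 2-fold. Some of these gaps were small. For turnover of licensing factors the median was 0.11, against 0.10 over all genes assessed and 0.17 in the level range of Mcm2 to Mcm7. Of 10 assessed genes for origin recognition and control of licensing, none was at least 2-fold different, and the median was 0.25. Mcm8, a relative of the ring subunits that works in DNA repair, stood highest there at 0.61, with levels of 3.94, 3.95, 4.08 and 4.68. Orc6 and Orc5, subunits of the origin recognition complex, stood at 0.57 and 0.48, and Gmnn, the inhibitor of Cdt1, at 0.28. Orc2, Orc3 and Orc4, of the same complex, stood at 0.09, 0.09 and 0.16.

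Of 9 assessed genes for helicase activation, 1 was at least 2-fold higher and the median was 0.47, or 0.24 with levels put at the floor. Gins2, Gins3, Mtbp, Wdhd1 and Donson were below the floor in WT at 2 weeks and so were assessed only through the null array. The gene at least 2-fold higher was 1 of these. It was Wdhd1, a replisome adaptor, at 1.10, or 0.94 with WT put at the floor. Mtbp, a partner of Ticrr in firing origins, stood at 0.93 (0.79 so bounded), and Gins2 and Gins3, partners of Gins1, at 0.86 and 0.59 (0.41 and 0.46). Cdc45, which joins the ring with GINS, stood at -0.10. Of 23 assessed genes of the replication fork, 1 was at least 2-fold higher, and the median was 0.33. It was Pold4, the small subunit of polymerase delta, which read 5.89 on chow, 5.07 and 4.78 on fructose and 5.87 in the null pool, so that null was at the chow level. Prim1, the primase, stood at 0.98, the polymerase gene Pole at 0.90 (0.59 with the level set at the floor), and Pcna, the sliding clamp, at 0.50.

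Genes of deoxynucleotide supply had a median of -0.04 in null over WT at 2 weeks, with 0 of 9 past 2-fold. Single genes went both ways, 4 up and 5 down. Dck, Dut and Rrm1 stood at 0.67, 0.51 and 0.45. Rrm2, the S-phase subunit of ribonucleotide reductase, read 4.32 on chow, 5.38 and 5.15 on fructose and 4.67 in the null pool. It was at least 2-fold higher in the 3-week pool over chow, at 1.06, and stood at -0.48 in null over WT at 2 weeks. Tyms and Tk1, which make and salvage thymidine nucleotides, stood at -0.04 each in the null comparison.

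Of 11 assessed genes of the E2F and RB families, none was at least 2-fold different in null over WT at 2 weeks, and the median was 0.38. E2f8, an E2F repressor, read 4.73, 4.71, 4.98 and 5.90, with a difference of 0.92. Rbl1, the p107 pocket protein, stood at 0.66, and E2f1, the activator, at 0.23. The 9 assessed G1 and S cyclins and kinases had a median of 0.21 with none past 2-fold. Ccna2, the S-phase cyclin, stood at 0.96 (0.70 with the level set at the floor), Ccnd1, the G1 cyclin, at 0.71, and Cdk6 at 0.60.

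Among 8 assessed kinase inhibitors and p53 targets the median was 0.19 and 1 was at least 2-fold higher, the antiproliferative gene Btg2 at 1.07. Btg2 read 6.03 on chow, 4.92 and 4.99 on fructose and 6.06 in the null pool, and it stood at -1.11 in the 3-week pool over chow. Cdkn1a, the p21 inhibitor, read 4.53, 5.63, 6.74 and 7.67, lowest on chow and highest in the null pool. It was at least 2-fold higher after 3 weeks of fructose, at 1.10, and stood at 0.92 in null over WT at 2 weeks. Of 8 genes for the turnover of licensing factors none was past 2-fold in the null comparison, with a median of 0.11. Dtl, which directs Cdt1 to degradation in S phase, stood at 0.87 (0.54 with the level set at the floor), and Cdc34, a ubiquitin-conjugating enzyme, at 0.68. In the 3-week pool over chow Cdc34 stood at -1.18.

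**Figure D4:**
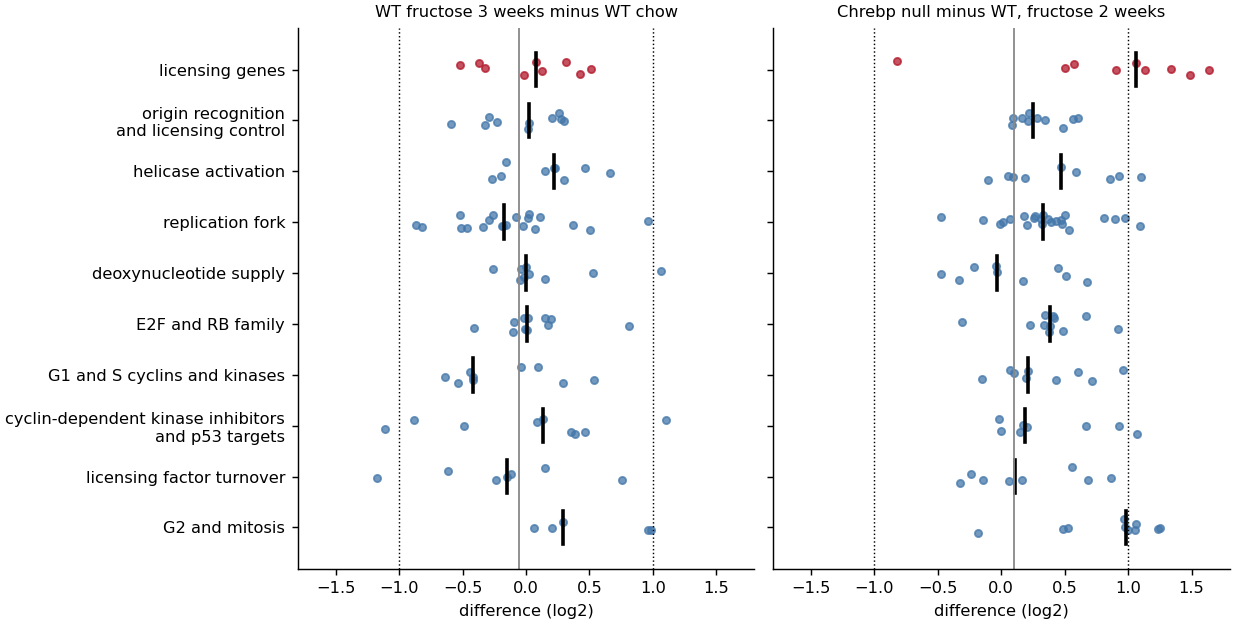
Log2 difference (x axis) of each gene assessed, by list (y axis), in 3-week fructose over chow (left) and null over WT at 2 weeks (right), with list medians as black bars, the median of all genes assessed as a grey line and 2-fold as dotted lines. On the right the median of the licensing genes (red) is 1.07; that of the G2 and mitosis genes is 0.98 as plotted and 0.54 with levels put at the floor.

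G2 and mitosis genes were mostly dim, with 10 of 19 assessed in null over WT at 2 weeks. Of these 4 were at least 2-fold higher as read and the median was 0.98, but Plk1, Tpx2, Prc1 and Birc5 reached the floor on the null array alone and so were assessed only through it. Kif11 and Aurka, at 3.18 and 3.08 in WT at 2 weeks, were also assessed only through the null array in this comparison. With levels put at the floor the median was 0.54 and only Ccnb2 and Cdc20 were past 2-fold, and over all 19 genes as read it was 0.52. The same measures for the licensing genes were 1.07 with levels put at the floor and 0.99 over all 10. Ccnb2, a mitotic cyclin, read 3.81 on chow, 4.77 after 3 weeks, 3.89 after 2 weeks and 5.12 in the null pool, a difference of 1.23, and Cdc20, an activator of the anaphase-promoting complex, stood at 1.06. Prc1 and Plk1, for the spindle midzone and a mitotic kinase, stood at 1.25 and 1.06 as read and at 0.33 and 0.35 with WT levels set at the floor. Mki67, the proliferation marker, read 4.59, 5.58, 4.72 and 5.25, and was highest after 3 weeks of fructose. In the null pool over that 3-week pool the 10 G2 and mitosis genes assessed ran from -0.33 for Mki67 to 1.08 for Tpx2 as read (0.56 with levels put at the floor), with a median of 0.38. Mcm2 to Mcm7 stood between 1.03 and 1.28 there, but all 9 licensing genes assessed ran from -1.91 for Mcm10 to 1.28, with a median of 1.11. In the 3-week pool over chow 5 of the mitotic genes were assessed and none was past 2-fold, with a median of 0.29. Mki67 and Ccnb2 stood at 0.99 and 0.96, Kif11 at 0.29, Cdc20 at 0.21 and Aurka at 0.06, and the mean of Mcm2 to Mcm7 at -0.06. Gins1 and Mcm10 were also highest in the 3-week pool.

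**Figure D5:**
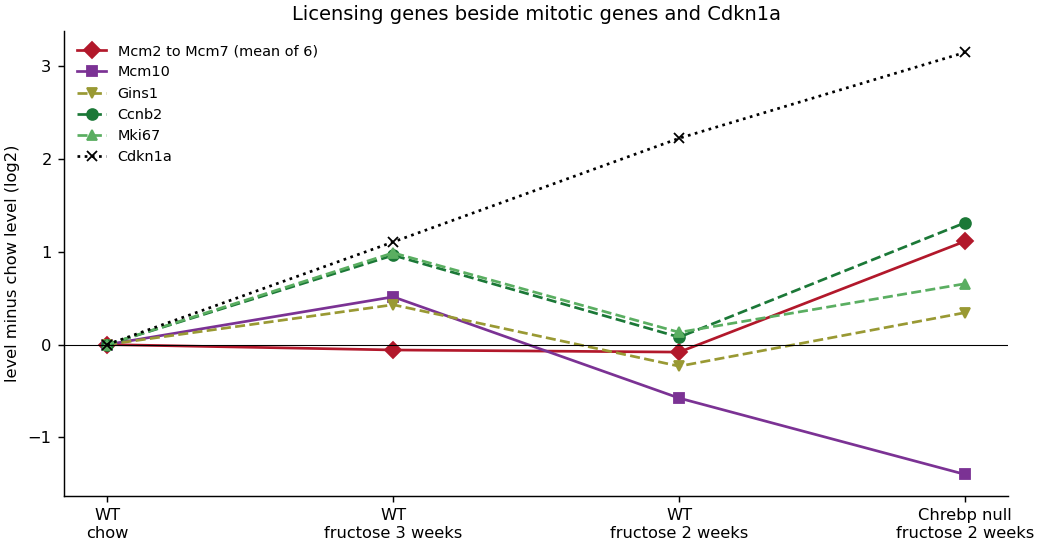
Log2 level minus the chow level (y axis) on the 4 arrays (x axis) for the mean of Mcm2 to Mcm7, for Mcm10, Gins1, the mitotic genes Ccnb2 and Mki67, and Cdkn1a; each point is 1 pool and lines only join points of a gene. Ccnb2 and Mki67 are up in both the 3-week and the null pool, the subunits in the null pool, and Mcm10 is lowest there.

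Over the 4 arrays, the genes closest to the mean profile of the 10 licensing genes were Sae1, Rab34, Aqp7, Usp28, Tia1 and Snhg11. Closeness was the Euclidean distance between levels centred on each gene's mean, taken over 963 genes with a span of at least 1, and it ran from 0.17 for Sae1 to 0.22 for Snhg11. Sae1, a subunit of the SUMO-activating enzyme, read 5.60, 5.60, 5.37 and 6.42. Mcm10 lay far from that mean profile, at 1.92, and the other members at 0.36 to 0.69. For the profile of Mcm2 to Mcm7 alone, a measure chosen after values were seen, the closest were Spc24 at 0.04, a kinetochore gene, then Id1, Clec7a, Brca2, Desi2 and Ifrd1 at 0.12 to 0.17. Spc24 read 5.98, 5.97, 5.94 and 7.11. With 4 arrays such likeness rests mainly on the null array.

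Cell types and sex were read beside the licensing genes. In RNA of whole liver, more cells of a type and more RNA in each cell cannot be told apart. Of 12 Kupffer cell and macrophage markers, 1 was at least 2-fold higher in the null pool than in WT at 2 weeks, Marco at 2.66, and the median was -0.08. The summed linear level of those markers was 2003 on chow, 1921 and 2453 on fructose at 3 and 2 weeks, and 2635 in the null pool. That sum includes Marco, which read 5.55 in WT at 2 weeks and 8.21 in the null pool. Of the 12 markers, 8 were lower in the null pool than in WT at 2 weeks, among them Adgre1 at -0.45, and 4 were higher. None of 8 hepatocyte, 9 stellate and fibroblast, 3 cholangiocyte, 4 T and NK cell, 2 B and plasma cell or 2 erythroid markers assessed was 2-fold different, and of 8 endothelial markers Lyve1 stood at -1.01. The 8 neutrophil markers were below the floor on every array, as were the T cell markers Cd3d and Cd8a, while Cd3e read 4.66 in the null pool against 4.85 to 5.32 in WT.

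Sex-linked genes moved with the null pool. Xist, expressed from the inactive X chromosome, read 8.84 on chow, 8.77 and 8.56 on fructose at 3 and 2 weeks, and 7.04 in the null pool. The Y-linked Eif2s3y read 6.12, 6.00, 6.51 and 7.34, Kdm5d 4.02, 4.07, 4.42 and 5.18, and Uty 4.03, 4.67, 4.87 and 5.39. All 3 were highest in the null pool, as Mcm2 to Mcm7 and Cdt1 were, and Xist was lowest there, as Mcm10 was. The part of the sexes in the pools, and of the Marco-expressing cells, in the difference of the licensing genes was not tested.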

How the data were processed

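Liver RNA pools of 4 groups were measured on 1 array each. The authors deposited log2 values for 41345 probe sets, made with affy and RMA per the submitters' processing notes; versions and settings are not stated there. RMA can understate large differences, and those of dim genes. The values were used as deposited. Probe sets listing 1 symbol in the platform annotation gave 22180 genes, the set of highest mean standing for a gene. No read depth exists for arrays.

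Differences are subtractions of log2 values, counted at 2-fold where the higher array reached the floor of 3.52, with no test. The members, lists and comparisons were chosen with earlier results of these data known. Members were named in full, and from each list up to 4 genes with the largest null over 2-week WT difference, those past 2-fold in a comparison of the series design, and a few others chosen after their values were seen. The alternatives tried were leaving out the floor, raising it to the 75 percentile, levels set at the floor, median centring, quantile normalization, lowess trend removal (fraction 0.3), the mean of probe sets, thresholds of 1.5-fold and 3-fold, and the mean of both WT fructose arrays. The calls were tested on simulated data, with changes well past 2-fold planted only in genes well above the floor. Dim genes such as Mcm2 and Mcm5, and smaller differences, were not covered by that test. Promoter windows came from RefSeq (GRCm38.p6). Python 3.11.15, numpy 2.4.6, pandas 2.3.3, statsmodels 0.14.6 and matplotlib 3.10.9 were used.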

Additional observations from a re-analysis of the deposited data

Results flagged for a closer look

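Mcm10 drew attention because fructose feeding went with opposite directions at the 2 times. It stood at 0.51 over chow in the 3-week WT pool and at -0.58 in the 2-week WT pool, a gap of 1.09 between the pools, with the same chow array in both. The difference was not tested, since each time has 1 pool of different mice.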

How the results depend on the processing

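With 1 array in each group no replicate could be left out, and no paired analysis was possible because the labels number no replicates. For single genes the alternatives were run in 3-week fructose over chow and in null over WT at 2 weeks only, and none past 2-fold there changed sign. With the floor at the 75 percentile 1 or 2 licensing genes were left to assess. Null over WT at 2 weeks, over WT at 3 weeks and over chow then each had 1 gene at least 2-fold higher, with medians of 1.34, -0.33 and -0.083, and the medians were 0.51 and -0.58 for 3 and 2 weeks of fructose over chow and 1.09 between those pools. With the trend of the difference with level removed, 3 genes were higher than WT at 2 weeks and 3 than WT at 3 weeks, with medians of 0.91 and 0.93. At 1.5-fold Mcm10 made 1 lower gene against WT at 2 weeks, 7 genes were higher than chow, and 2 differed between the WT fructose pools. At 3-fold 1 gene was higher than WT at 2 weeks, 0 than WT at 3 weeks, 1 higher and 0 lower than chow, and 0 between the WT fructose pools. With the mean of both WT fructose arrays 1 gene was lower in the null pool and the median of fructose over chow was -0.060, and Mcm10 stood at -0.03 in fructose over chow and -1.37 in null over WT. Quantile normalization, median centring, no floor and levels set at the floor moved no count by over 1.5 times. The mean of probe sets could not change a licensing gene's level, since each has only 1 probe set of its own. A median counted as moved past 0.12, the robust SD of 0.35 between the WT fructose pools divided by the square root of the genes assessed. That division treats the genes as independent, although they were read on the same arrays. The cut is therefore a working mark and not a measured error of the median. Dim levels, as of Cdc6 and Mcm5, limit what can be read.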

Other observations

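Across the array, promoter windows were split by the E2F letters. Of 406 assessed genes with the letters 3.2% were at least 2-fold higher in null over WT at 2 weeks, with a median of 0.15, and of 8772 with a window but without the letters 1.97% were, with a median of 0.10. The licensing genes were not left out of this split. Mcm3, Mcm5 and Mcm6 are among the 13 genes that make up the 3.2%, so that share partly counts them again. In null over WT at 3 weeks, with the same null array, the shares were 4.4% of 409 genes with the letters and 3.34% of 8864 without. The medians there were 0.20 and 0.12. In null over chow the order of the shares was the other way, 1.45% of 414 genes with the letters and 1.68% of 8830 without. The medians over chow were 0.09 with the letters and 0.06 without. Median GC content of the windows was 62.3% and 60.3%. In 3-week fructose over chow the medians were -0.06 in both sets, with 0% and 0.578% at least 2-fold higher. Among the lists, the letters occurred in 8 of 24 replication fork genes with a window, 5 of 10 E2F and RB family genes, 4 of 10 genes for origin recognition and control of licensing, 1 of 17 G2 and mitosis genes and 0 of 8 genes of deoxynucleotide supply. These lists share known E2F targets, and the counts are descriptions of letters.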
